A study of Chlamydomonas reinhardtii with 12 samples.

Results

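RNA of old and fresh cultures was compared in vip1-1, a strain of the green alga Chlamydomonas reinhardtii that the submitters describe as short of inositol pyrophosphates. The comparison used 6 of the 12 libraries of the study, taken by their labels: 3 of vip1-1 under nutritional stress, harvested at 14 days, and 3 of vip1-1 control, harvested at 24 h. The other 6 libraries hold wild-type cells under the same pair of conditions, and they entered the fit and a few values set side by side. Every sample is labelled with the strain CC-1690. All cultures grew at 25 °C and 50 µmol photons of light (per square metre and second) in liquid TAP, a medium that supplies acetate as carbon, ammonium as nitrogen and phosphate. Culture age and nutrient state changed together, so their parts in any difference cannot be told apart. The study asked how inositol pyrophosphates act in the response to scarce nutrients. The labels call the 3 libraries of a group biological replicates and give vip1-1 as a single strain, with no second allele or complemented line among the samples used here.

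Inositol pyrophosphates are highly phosphorylated signalling molecules that eukaryotic cells use to tie growth and storage to their phosphate and energy state. Chlamydomonas lives on light and carbon dioxide or on acetate, and moves between these modes as supplies change. Textbook accounts of this alga under nitrogen scarcity describe the release of nitrate and ammonium uptake genes from repression, and the dismantling of the photosynthetic apparatus. Neither the tables nor the reference annotation pairs a gene ID with a name or a function. The functions below are therefore given for whole lists of IDs, which were drawn up from general knowledge of the published gene models of this alga and could not be checked against an annotation here. No name or role is given to a single ID.

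Total counts were 11405177, 19804077 and 18047424 in the stress libraries and 21144224, 28833327 and 24505878 in the control libraries. A group of 6 abundant features held 1.23%, 5.68% and 46.9% of the counts in stress replicates 1 to 3, and 4.85%, 3.16% and 0.561% in control replicates 1 to 3. Replicates were not equally alike. Spearman's rho across genes was 0.93, 0.941 and 0.98 among the stress libraries and 0.99, 0.906 and 0.908 among the control libraries, with stress replicate 1 and control replicate 3 standing apart. In stress replicate 1, 1343 genes lay at least 2-fold away from both other stress libraries on the log2(CPM + 1) scale, against 88 and 115 in stress replicates 2 and 3. In control replicate 3 the number was 1970, against 46 and 37 in control replicates 1 and 2. Between the groups rho ran from 0.707 to 0.786, below every value within a group, and the first principal component, with 63.1% of the variance, separated stress from control. Levels are given as CPM, the count scaled for depth with the library sizes of TMM (trimmed mean of M values). It is not divided by gene length, so levels are compared below between libraries for a given gene or list and never between genes.

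Under stress 3544 of 15286 tested genes (23.2%) changed, taking a Benjamini-Hochberg adjusted p below 0.05 from the quasi-likelihood test of edgeR as the threshold. Adjusted p-values below come from this fit unless another tool is named. The change was higher for 1861 genes (12.2%) and lower for 1683 genes (11%). Most of these differences were large: 1637 genes rose and 1416 fell by 1 or more on the log2 scale, and 403 rose and 268 fell by 3 or more. The median log2 fold change of all tested genes was 0.09. Genes that fell took 9.31%, 11.1% and 10.2% of the counts outside the 6 abundant features in the stress libraries, and 36.9%, 37.6% and 43.2% in the control libraries. Genes that rose took 27.2%, 23.8% and 25.1% in the stress libraries, and 8.69%, 8.62% and 8.14% in the control libraries. The test chose these genes in the same libraries, so the direction of these shares was fixed in advance. In bulk RNA, fewer cells expressing a gene and less RNA per cell cannot be told apart. The CPM ranges of the 3 stress and 3 control libraries did not overlap for 8159 tested genes (53.4%).

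**Figure D1:**
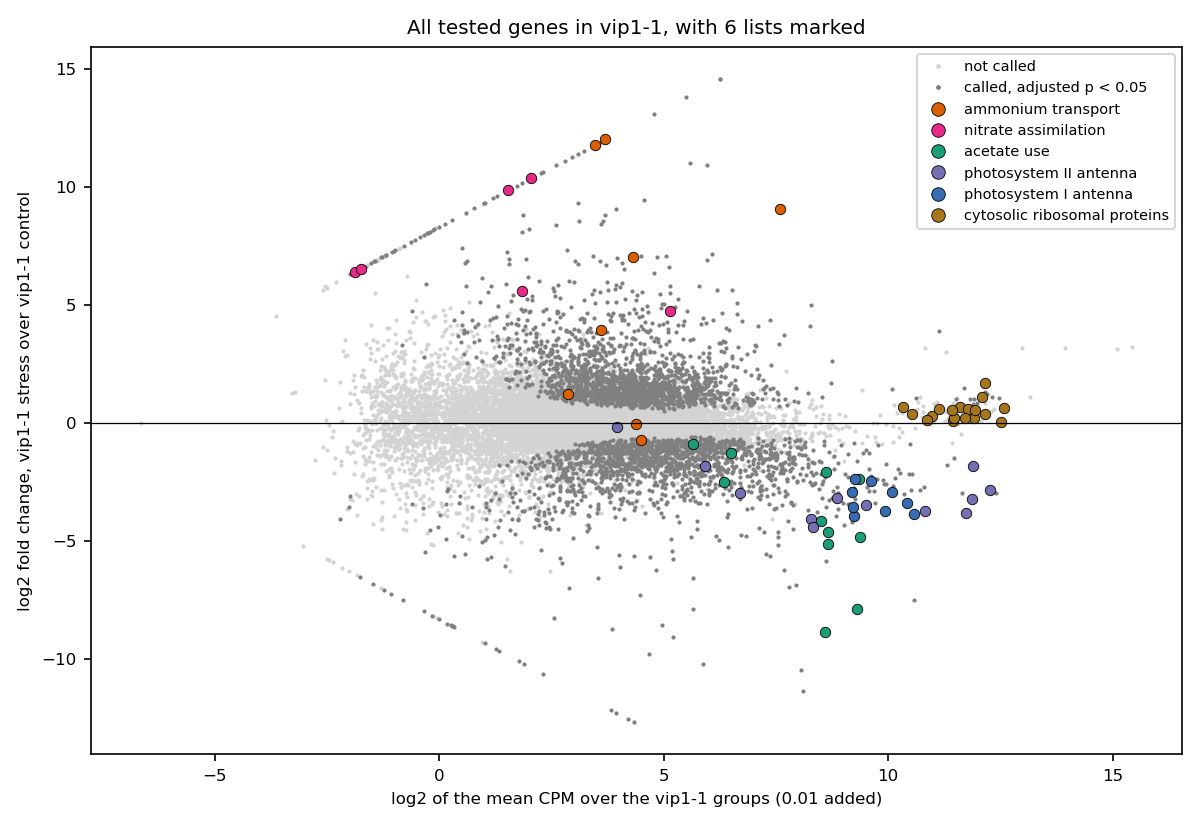
Log2 fold change of vip1-1 stress over vip1-1 control (vertical axis) against the log2 mean CPM of the vip1-1 groups (horizontal axis), 1 point per tested gene, dark where called and coloured for 6 lists. Points along the slanted edges have 0 counts in every library of a group, so their position depends on the prior count. The acetate and antenna lists lie below 0, most nitrate and ammonium points lie above it, and the ribosomal list lies close to it.

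The 8 genes with the largest increases were ranked by fitted log2 fold change. They were taken among called genes with a mean of at least 10 CPM in a group. All 8 had 0 counts in the 3 control libraries. For a group at 0 counts the fitted value depends on the prior count, which can place such genes ahead of others. Cre13.g569850, outside the 8, was 536-fold higher, above some of the bounds below. Cre10.g442800 had 171, 151 and 137 CPM under stress, at least 1660-fold higher when each control library is set to a floor of 3 counts (adjusted p 1.4e-05, edgeR). Cre12.g551353, on the list of glutamine and glutamate synthesis and amino acid oxidase, had 189, 188 and 78.1 CPM under stress, at least 1650-fold higher. Cre01.g011150 had 92.3, 88.6 and 89.0 CPM, at least 978-fold higher, and Cre14.g617200 had 63.1, 46.6 and 57.3 CPM, at least 605-fold higher. The other four were Cre10.g424750, Cre14.g629920, Cre16.g673250 and Cre03.g159254, at least 290-fold, 282-fold, 263-fold and 240-fold higher. The last of these bounds rests on stress replicate 2 and was 119-fold without it. Over all tested genes, 54 that rose had 0 counts in every control library.

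The 8 genes with the largest decreases, ranked in the same way, were nearly silent under stress. Cre17.g702900, outside the 8, was 463-fold lower, more than the bounds of the listed genes at 0 counts in all stress libraries. Cre09.g398450 had 0 counts in all stress libraries and 16.8, 18.7 and 86.5 CPM in the controls, at least 258-fold lower (adjusted p 0.0012, edgeR), or 112-fold without control replicate 3. Cre16.g661750, Cre03.g207800 and Cre09.g403071 were also at 0 counts under stress, at least 235-fold, 195-fold and 179-fold lower. Cre04.g223100, on the carbon concentrating list, had 0, 0.145 and 0.504 CPM under stress and 408, 517 and 719 CPM in the controls. Its log2 fold change was -11.35 (SE 1.25), and -12.66 without stress replicate 3. Cre24.g755997 had 0, 0.362 and 0.756 CPM under stress and 309, 380 and 912 CPM in the controls, a log2 fold change of -10.48 that was -11.41 without stress replicate 3 and -9.85 without control replicate 3. The log2 fold changes of Cre10.g452250 (-10.21) and Cre16.g661850 (-9.78) rest on 6 and 3 counts in a single stress library each. Without that library (stress replicate 2 and stress replicate 3) the remaining stress libraries had 0 counts, and the genes were at least 646-fold and 357-fold lower under stress. Cre10.g452250 was at -9.34 without control replicate 3, and Cre16.g661850 at -9.02 without stress replicate 2. Counting every size of change, 23 genes that fell had 0 counts in all stress libraries.

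The 27 function lists held 253 IDs, of which 252 are in the table, 246 were tested and 145 were called, 28 higher and 117 lower. Of all tested genes, 12.2% were called higher and 11% lower. The lists were chosen with earlier results of these data known, so these counts describe the lists only. Within the lists most genes of photosynthesis, chlorophyll synthesis and acetate use fell, 4 of 6 nitrate and 5 of 8 ammonium members rose, and the phosphate and sulfate lists had no called member. Gene groups are taken below in the order nitrogen, photosynthesis, carbon, other nutrients, growth and stress.

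**Figure D2:**
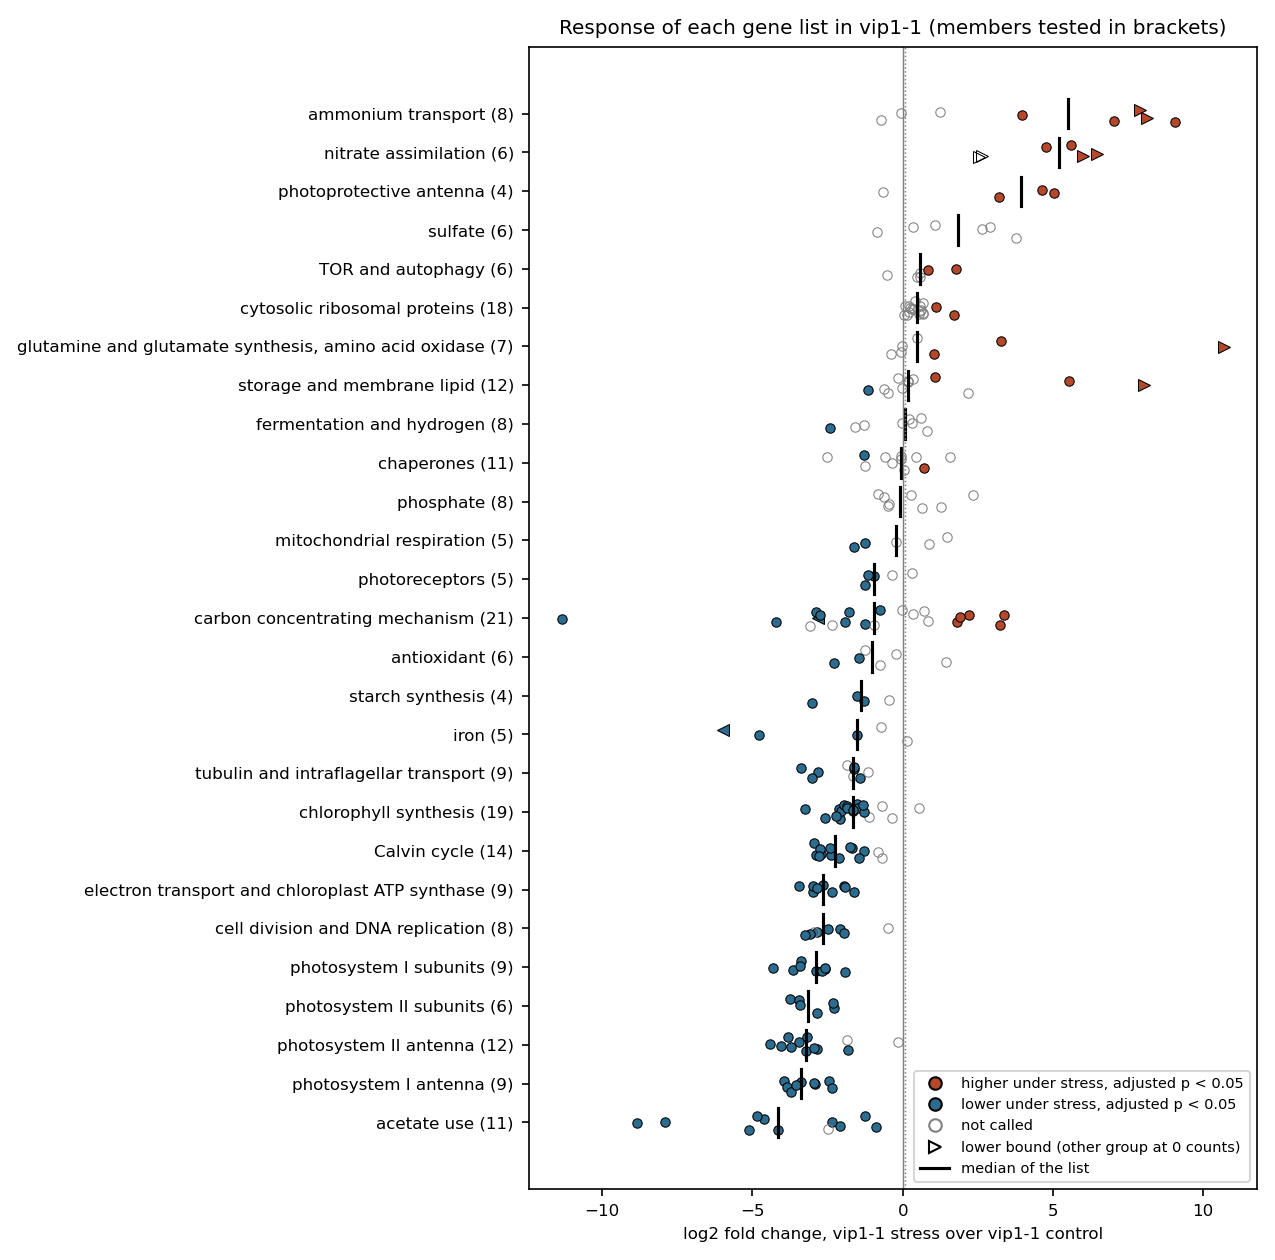
Log2 fold change of vip1-1 stress over vip1-1 control for each tested member of 27 lists, filled where called, with the list median as a bar and the median of all tested genes (0.09) as a dotted line. Triangles are lower bounds for members at 0 counts in a group. With such members at their bound, the medians run from 5.49 in the ammonium list to -4.14 in the acetate list.

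Most tested genes of nitrogen uptake rose. In the nitrate assimilation list, which covers uptake and reduction of nitrate and nitrite and their regulation, 4 of 6 tested members were higher under stress and none lower, where 12.2% of all tested genes were higher. The list summed to 97.0, 79.5 and 95.5 CPM in the stress libraries and to 1.11, 1.92 and 4.87 CPM in the control libraries, so every stress library lay above every control library. The ratio of the means was 34.4. The median log2 fold change was 6.47, or 5.19 with the members at 0 counts in the controls set to their bound. Control replicate 3 was the highest control: the mean log2 ratio of the sums was 5.37, and 5.95 without it. Cre09.g410750 had 84.2, 53.0 and 68.2 CPM under stress and 1.11, 1.79 and 4.60 CPM in the controls, with log2 fold change 4.77 (SE 0.92, adjusted p 0.0037, edgeR), or 5.54 without control replicate 3. Cre09.g410850 had 5.03, 11 and 8.63 CPM under stress and 0 counts in the controls, at least 89.4-fold higher. Cre09.g410950 had 3.74, 6.66 and 7.06 CPM under stress and 0 counts in the controls, at least 63.3-fold higher. The groups did not overlap for these 3 genes, as for 53.4% of all tested genes. Cre09.g410900 also rose, with 4.03, 8.0 and 9.07 CPM under stress and 0, 0.128 and 0.274 CPM in the controls. The other two members were barely present: Cre09.g410800 reached 1.26 CPM and Cre03.g177700 1.26 CPM in stress replicate 3, with 0 counts in stress replicate 1 and in all controls (adjusted p 0.062 and 0.07 in edgeR).

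Ammonium transport genes, which bring in the nitrogen form that TAP supplies, showed 2 kinds of member. Of 8 tested, 5 rose and none fell, where 12.2% of all tested genes rose. The list's median log2 fold change was 5.49. Cre13.g569850 had 314, 474 and 362 CPM under stress and 0.431, 0.794 and 0.883 CPM in the controls, with log2 fold change 9.07 (SE 0.99, adjusted p 0.00012, edgeR). Cre09.g400750 had 55.6, 30.5 and 33.0 CPM under stress and 0.538, 0.256 and 0.122 CPM in the controls, with log2 fold change 7.02 (SE 0.54), or 7.64 without control replicate 1. For both, every stress library was above 30 CPM and every control library under 1 CPM. Cre14.g629920 and Cre03.g159254 were absent from the control counts, as given above, and Cre12.g531000 rose by 3.96 on the log2 scale, with 26.9, 22.5 and 18.6 CPM under stress and 1.72, 1.61 and 1.04 CPM in the controls. The other 3 members did not pass the test. Only Cre06.g293051 had overlapping groups, where 53.4% of all tested genes had groups that did not overlap. Cre02.g111050 averaged 17.1 ± 6.65 CPM under stress and 28.0 ± 7.10 CPM in the controls, Cre06.g293051 20.5 ± 6.74 and 21.4 ± 0.773 CPM, and Cre07.g355650 10.2 ± 1.88 and 4.34 ± 1.59 CPM (SD, n = 3 each).

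Downstream of uptake, in the list of glutamine and glutamate synthesis and amino acid oxidase, 3 of 7 members rose and none fell. Of all tested genes, 12.2% rose. The list's median log2 fold change was 0.47. Besides Cre12.g551353, described above, Cre13.g592200 had 220, 314 and 307 CPM under stress and 144, 136 and 130 CPM in the controls, a log2 fold change of 1.04 whose call was lost without stress replicate 3 (adjusted p 0.074, edgeR). Cre12.g530600 had 152, 351 and 226 CPM under stress and 9.90, 8.2 and 57.0 CPM in the controls, with log2 fold change 3.28 (SE 0.94). Its call was lost without stress replicate 2 or 3 or without control replicate 1 or 2 (adjusted p 0.073, 0.063, 0.096 and 0.092 in edgeR). Without control replicate 3 its log2 fold change was 4.75. The list had 1 called member without stress replicate 3. The other members lay between -0.40 and 0.47, and their groups overlapped.

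**Figure D3:**
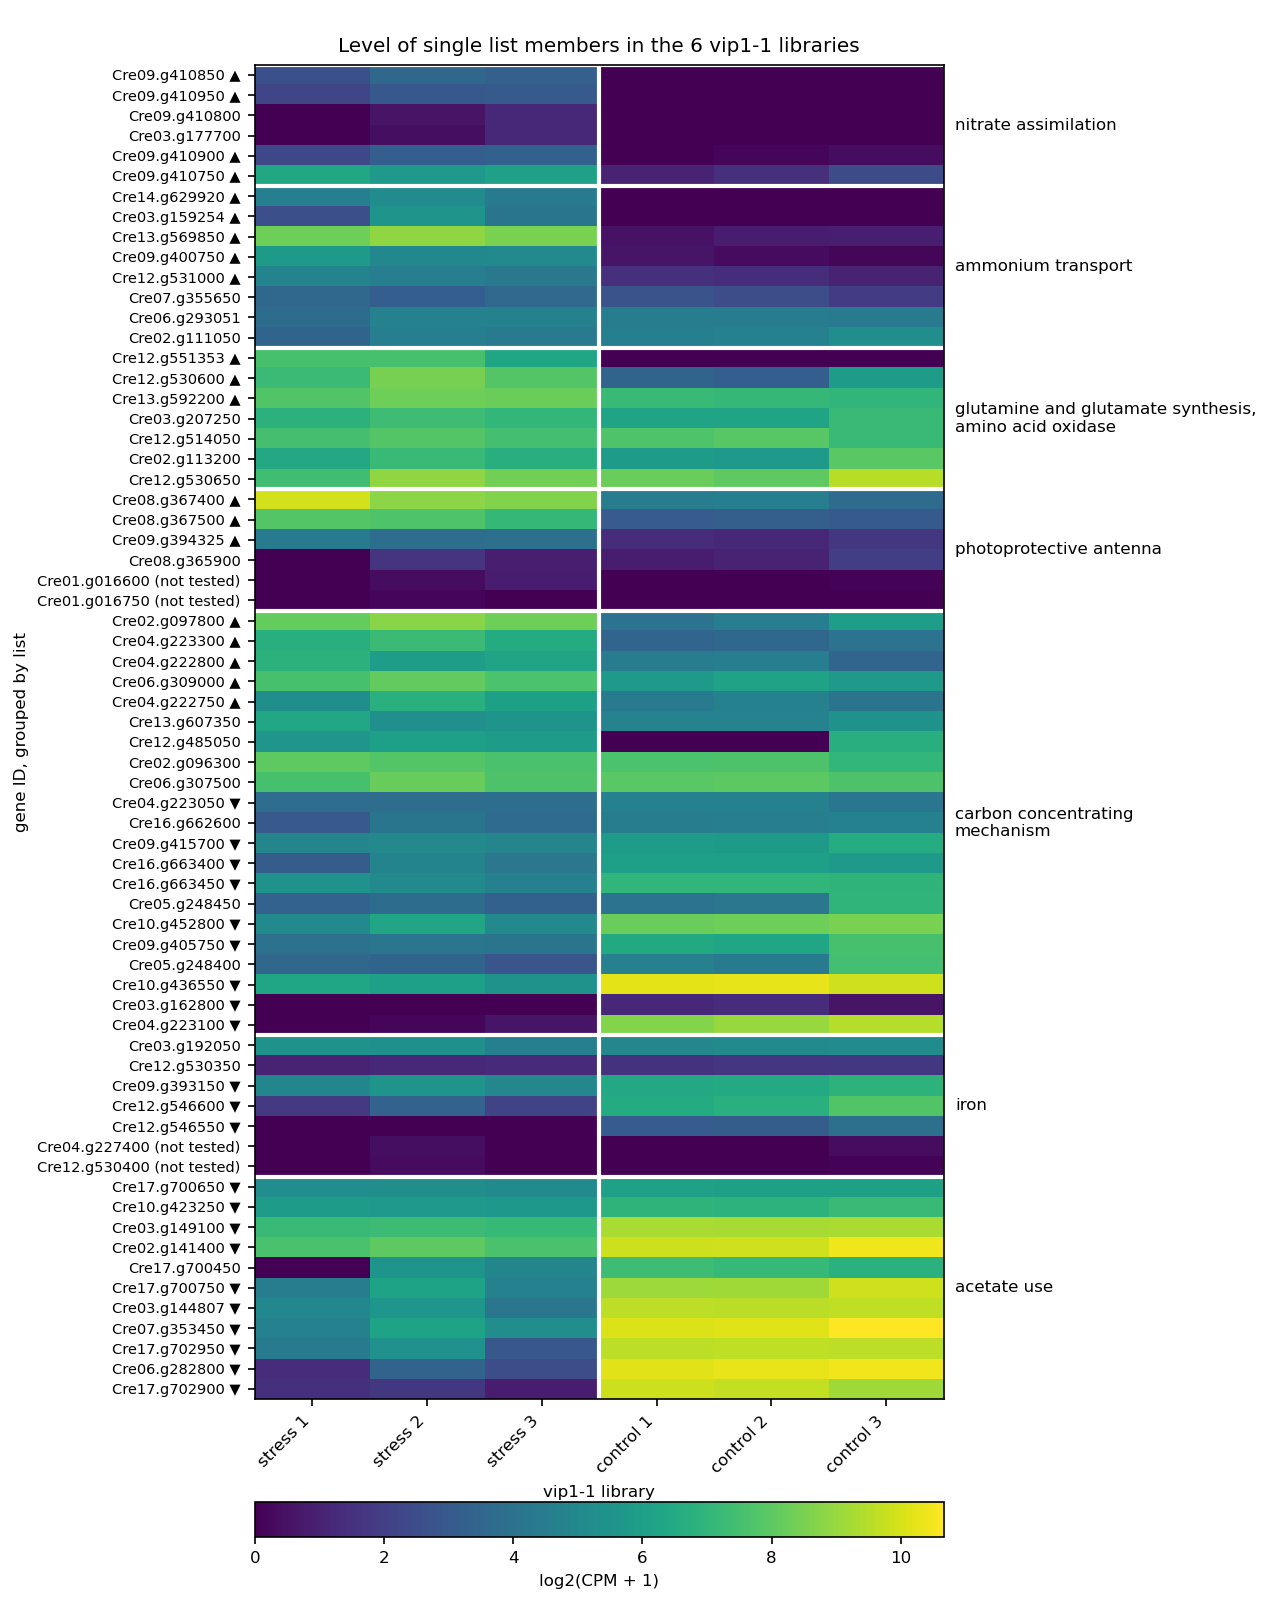
Level of each member of 7 lists in the 6 vip1-1 libraries as log2(CPM + 1), stress libraries left and control libraries right of the white line, with called members marked by triangles for their direction. In the nitrate and ammonium lists the called members are under 5 CPM in all 3 controls, while in the acetate list the called members are brighter in the controls. Cre12.g485050, Cre05.g248400 and Cre05.g248450 stand out in control replicate 3.

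Genes of the photosynthetic apparatus fell, with 4 exceptions among the members tested. All 9 tested members of the photosystem I antenna list, all 9 of photosystem I subunits, all 6 of photosystem II subunits and all 9 tested of electron transport and the chloroplast ATP synthase were lower under stress, as were 10 of 12 in the photosystem II antenna list and 12 of 14 in the Calvin cycle list. Over all tested genes 11% were lower. The antenna proteins bind chlorophyll and pass light energy to the photosystems, and the Calvin cycle fixes carbon dioxide. Antenna and small Rubisco subunit genes of this alga include closely similar copies, so reads may have been divided between members, and single values in these families are uncertain.

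The photosystem II antenna list summed to 3630, 6090 and 4280 CPM in the stress libraries and 27300, 29200 and 47700 CPM in the control libraries, with a median log2 fold change of -3.21. Cre04.g232104 had 427, 1070 and 677 CPM under stress and 6230, 6360 and 7760 CPM in the controls, with log2 fold change -3.23 (SE 0.33, adjusted p 7.9e-05, edgeR). The 4 steepest members were Cre06.g283950 (-4.40), Cre03.g156900 (-4.06), Cre12.g548950 (-3.82) and Cre12.g548400 (-3.72). Stress replicate 2 was the highest stress library for each of them. Without it the log2 fold changes of Cre06.g283950, Cre03.g156900 and Cre12.g548400 were -5.56, -4.69 and -4.43. The other called members lay between -3.46 and -1.81. Cre06.g284200, at 26.4 ± 22.1 CPM under stress and 94.7 ± 48.8 CPM in the controls (SD, n = 3 each), did not pass the test, and Cre02.g110750 had nearly the same level in both groups, at 14.8 ± 1.98 and 16.5 ± 2.91 CPM (SD, n = 3 each).

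The photosystem I antenna list summed to 1330, 1900 and 1490 CPM in the stress libraries and 12800, 13300 and 18200 CPM in the control libraries, 9.36 times less under stress. Its members were close to each other, with log2 fold changes between -3.94 and -2.36. Cre06.g278213 had 46.5, 104 and 72.3 CPM under stress and 1070, 1190 and 1140 CPM in the controls (log2 fold change -3.94, SE 0.30, adjusted p 1.8e-05, edgeR). Cre06.g283050 had 221, 210 and 162 CPM under stress and 3000, 3020 and 2520 CPM in the controls (log2 fold change -3.85, SE 0.27). For all 9 members every stress library was below every control library, where 53.4% of all tested genes had groups that did not overlap. Cre10.g452050 changed by -3.71, and Cre16.g687900 by -3.56, or -2.66 without control replicate 3.

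The subunit lists moved by similar amounts. Photosystem I subunits had a median log2 fold change of -2.89 and photosystem II subunits one of -3.15. Cre07.g334550, the photosystem I member with the steepest fall, had 36.2, 75.1 and 38.5 CPM under stress and 795, 891 and 1280 CPM in the controls (log2 fold change -4.31, SE 0.36). Cre02.g082500, Cre17.g724300 and Cre12.g560950 followed at -3.65, -3.42 and -3.38, with Cre17.g724300 at -2.22 without control replicate 3, where it had 2160 CPM against 392 and 492 CPM in the other controls. Among photosystem II members, Cre05.g243800 had 36.5, 47.3 and 33.8 CPM under stress and 421, 383 and 488 CPM in the controls (log2 fold change -3.46, SE 0.27, adjusted p 1.8e-05, edgeR). Cre02.g082750, Cre12.g550850 and Cre08.g372450 were at -3.76, -3.43 and -2.86, and Cre12.g550850 was at -2.63 without control replicate 3.

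In electron transport and the chloroplast ATP synthase, the list sum was 2020, 2810 and 1950 CPM under stress and 13900, 13600 and 15200 CPM in the controls. The 4 largest decreases were those of Cre06.g259900 (-3.45), Cre03.g182551 (-2.98), Cre11.g476750 (-2.98) and Cre14.g626700 (-2.84). The tenth ID, Cre16.g651050, was at 0 counts under stress and at most 0.426 CPM in a control, and was too low to be tested. In the Calvin cycle list, Cre02.g120150 had 1030, 1730 and 989 CPM under stress and 11400, 12000 and 5560 CPM in the controls (log2 fold change -2.95, SE 0.42), with control replicate 3 lower than the other controls. Cre11.g467770 was steadier, with 141, 185 and 142 CPM under stress and 1030, 1090 and 1020 CPM in the controls (log2 fold change -2.75, SE 0.22, adjusted p 2.1e-05, edgeR). Cre03.g185550 and Cre12.g554800 fell by 2.89 and 2.80 on the log2 scale. The groups did not overlap for any of the 14 Calvin cycle members, as for 53.4% of all tested genes. These members include Cre01.g029300 and Cre12.g511900, which did not pass the test at -0.83 and -0.69.

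Photoprotective antenna genes went the other way. These relatives of the light-harvesting proteins help to turn excess light energy into heat. Of 6 IDs, 4 were tested, and 3 of them rose with none lower, where 12.2% of all tested genes rose. The list summed to 1210, 680 and 546 CPM in the stress libraries and 30.8, 33.7 and 24.8 CPM in the control libraries, 27.3 times more under stress. Cre08.g367400 had 970, 453 and 393 CPM under stress and 21.0, 22.9 and 12.3 CPM in the controls (log2 fold change 5.02, SE 0.69, adjusted p 0.00048, edgeR). Cre08.g367500 had 223, 210 and 137 CPM under stress and 7.43, 8.41 and 7.16 CPM in the controls (log2 fold change 4.63, SE 0.36). The 2 genes were thus far above every control in every stress library. Reads may have been divided between closely similar copies here too, as in the other antenna lists. Cre09.g394325 had 19.9, 13.6 and 14.5 CPM under stress and 1.58, 1.26 and 2.31 CPM in the controls (log2 fold change 3.21), and its call was lost without stress replicate 1 or 3 or control replicate 1 or 2, with adjusted p between 0.055 and 0.083 in edgeR. Cre08.g365900 stayed between 0 and 2.98 CPM with overlapping groups, and Cre01.g016600 and Cre01.g016750 were below 1 CPM in all 6 libraries.

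**Figure D4:**
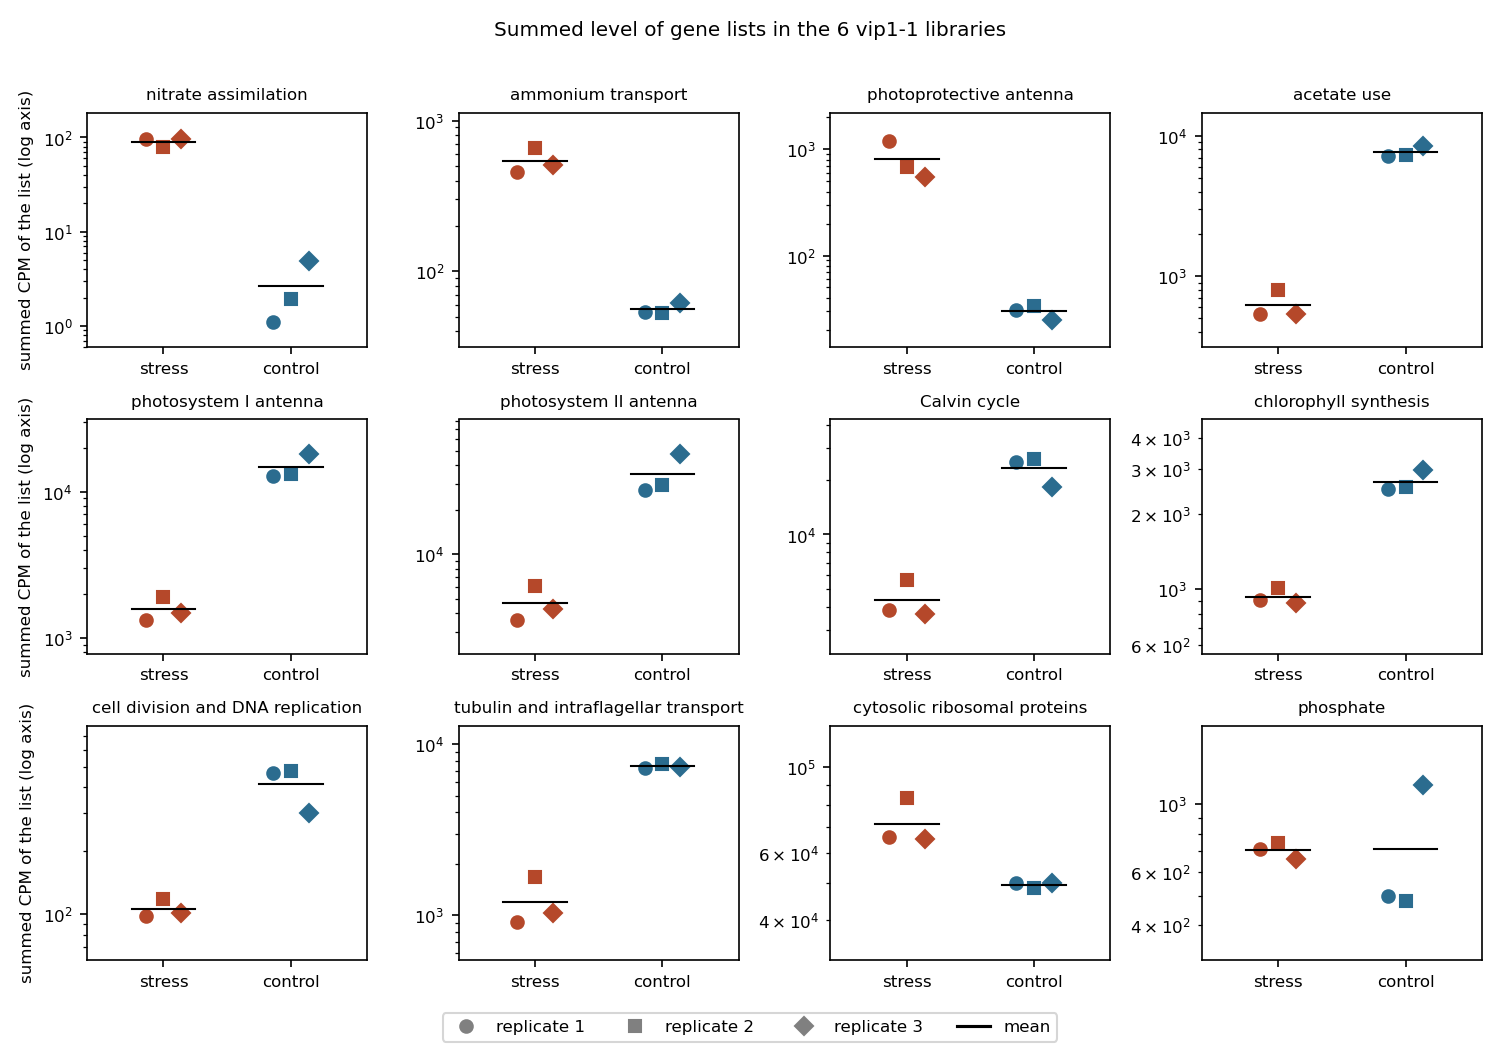
Summed CPM of 12 lists in each vip1-1 library on log axes whose ranges differ, stress left of control, with symbols for replicates 1 to 3 and a bar for the mean. The groups are apart in every panel except phosphate, where control replicate 3 (1150 CPM) lies above the stress libraries and the other 2 controls (499 and 481 CPM) below them.

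Chlorophyll synthesis genes fell along with the genes of the proteins that carry the pigment, by smaller amounts. Of 19 members 15 were lower and none higher, where 11% of all tested genes were lower. The median log2 fold change was -1.67, and the list summed to 909, 1010 and 882 CPM under stress and 2500, 2540 and 2970 CPM in the controls. Cre12.g510050 had 11.9, 26.7 and 21.0 CPM under stress and 139, 149 and 274 CPM in the controls (log2 fold change -3.24, SE 0.41). Cre01.g043350 had 16.0, 20.5 and 17.7 CPM under stress and 106, 96.6 and 124 CPM in the controls (log2 fold change -2.59, SE 0.20, adjusted p 1.9e-05, edgeR). Both had groups far apart. Cre06.g294750 and Cre03.g158000 fell by 2.22 and 2.12 on the log2 scale, and Cre03.g158000 was no longer called without stress replicate 2 or 3 (adjusted p 0.058 and 0.052 in edgeR). Only Cre05.g246800 had a positive value among the 19, at 110 ± 30.8 CPM under stress and 76.4 ± 16.8 CPM in the controls (SD, n = 3 each), and it did not pass the test.

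Acetate use had the lowest median of the 27 lists. These genes bring acetate, the organic carbon of TAP, into the glyoxylate cycle and on towards sugars. Of 11 members 10 fell and none rose, where 11% of all tested genes fell. The median log2 fold change was -4.14. The list summed to 534, 792 and 539 CPM in the stress libraries and 7200, 7260 and 8450 CPM in the control libraries, 12.3 times less under stress. Cre17.g702900 had 1.81, 2.28 and 0.819 CPM under stress and 914, 832 and 567 CPM in the controls (log2 fold change -8.85, SE 0.83, adjusted p 5e-05, edgeR). Cre06.g282800 had 1.52, 9.55 and 4.79 CPM under stress and 1160, 1280 and 1370 CPM in the controls (log2 fold change -7.90, SE 0.70), or -8.66 without stress replicate 2. Transcripts of these 2 genes were thus nearly gone in each stress library. Cre17.g702950 had 20.3, 40.6 and 6.49 CPM under stress and 772, 805 and 773 CPM in the controls (log2 fold change -5.12), or -5.87 without stress replicate 2. Cre07.g353450 fell by 4.84 on the log2 scale. At the other end, Cre17.g700650 had 36.4, 37.7 and 32.8 CPM under stress and 66.7, 65.6 and 65.2 CPM in the controls, a small difference (log2 fold change -0.88) that replicates showed with little spread. The member that did not pass, Cre17.g700450, had 0, 45.1 and 28.5 CPM under stress and 164, 141 and 112 CPM in the controls. Stress replicate 1 was at 0 there.

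The carbon concentrating mechanism, which gathers inorganic carbon around Rubisco, split in both directions. Of 21 members 5 rose and 9 fell, against 12.2% and 11% of all tested genes, and the median log2 fold change was -0.94. Among those that fell, Cre04.g223100 dropped to near 0 as given above, and Cre10.g436550 had 76.3, 64.0 and 42.6 CPM under stress and 1190, 1220 and 947 CPM in the controls (log2 fold change -4.20, SE 0.41). Cre03.g162800 was at 0 counts in the stress libraries and 1.33, 1.54 and 0.487 CPM in the controls, at least 7.09-fold lower. Among those that rose, Cre02.g097800 had 279, 437 and 315 CPM under stress and 15.9, 22.6 and 61.3 CPM in the controls (log2 fold change 3.37, SE 0.52), or 4.16 without control replicate 3. Cre04.g223300 had 101, 154 and 94.1 CPM under stress and 10.2, 11.2 and 15.5 CPM in the controls (log2 fold change 3.24, SE 0.41, adjusted p 0.00028, edgeR). Cre04.g222800, Cre06.g309000 and Cre04.g222750 rose by 2.21, 1.90 and 1.81 on the log2 scale. IDs that lie close together in the Cre04 series therefore moved apart, Cre04.g223100 and Cre04.g223050 (-0.76) lower and Cre04.g223300, Cre04.g222800 and Cre04.g222750 higher. The number that fell was 6 without control replicate 1 or 2 or without stress replicate 1 or 3. Control replicate 3 stood far above the other controls at several members that did not pass. Cre05.g248400 had 10.4, 9.91 and 6.05 CPM under stress and 23.8, 20.9 and 177 CPM in the controls, Cre05.g248450 had 9.29, 12.7 and 9.07 CPM under stress and 15.9, 18.0 and 124 CPM in the controls, and Cre12.g485050 had 45.7, 64.1 and 58.9 CPM under stress and 0, 0 and 103 CPM in the controls.

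Carbon stores moved less evenly. In starch synthesis, 3 of 4 members fell and none rose, where 11% of all tested genes fell. Cre17.g721500 had 45.8, 43.2 and 25.3 CPM under stress and 303, 318 and 303 CPM in the controls (log2 fold change -3.02, SE 0.30, adjusted p 6.5e-05, edgeR). Cre03.g188250 and Cre13.g567950 fell by 1.51 and 1.28 on the log2 scale, and Cre10.g444700, at 114 ± 14.1 CPM under stress and 157 ± 38.6 CPM in the controls (SD, n = 3 each), had overlapping groups. In the storage and membrane lipid list, 3 of 12 members rose and 1 fell, against 12.2% and 11% of all tested genes. The median log2 fold change was 0.18, near that of all genes. Cre16.g673250 had 16.7, 20.8 and 35.1 CPM under stress and 0 counts in all controls, the bound of 263-fold given above. Cre12.g557750 had 24.1, 21.5 and 25.2 CPM under stress and 0.431, 0.718 and 0.335 CPM in the controls (log2 fold change 5.55, SE 0.40, adjusted p 3.4e-05, edgeR). These 2 members were present at low or no level in every control. Cre01.g045903 rose by 1.09 and Cre01.g038550 fell by 1.16 on the log2 scale, and the other 8 lay between -0.61 and 2.18.

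Among mineral nutrients other than nitrogen, members were called only in the iron list, and these fell. No member of the phosphate list (8 tested) or the sulfate list (6 tested) was called in edgeR. The median log2 fold change was -0.10 in the phosphate list and 1.85 in the sulfate list, which summed to 37.6, 41.2 and 47.4 CPM under stress and 25.7, 27.8 and 21.4 CPM in the controls. At an unadjusted p under 0.05 the same test had 3 phosphate members higher and 1 lower, and 4 sulfate members higher, where 18.8% of all tested genes were higher and 16.9% lower. DESeq2 called 3 phosphate and 2 sulfate members higher, against 17.4% of all genes. In voom with quality weights 5 phosphate members were higher and 1 lower, and 4 sulfate members were higher, where that tool called 37.6% of all genes higher and 29.2% lower. Control replicate 3 stood apart in the phosphate list. Cre02.g144650 had 229, 207 and 138 CPM under stress and 52.8, 52.9 and 371 CPM in the controls. Without control replicate 3, 2 phosphate members and 1 sulfate member were called higher. Cre12.g495100 had 55.6, 52.3 and 48.4 CPM under stress and 19.0, 17.7 and 28.5 CPM in the controls, and Cre04.g216700 had 5.79, 7.49 and 9.51 CPM under stress and 1.11, 1.87 and 1.49 CPM in the controls, with adjusted p 0.058 and 0.077 in edgeR. Their groups did not overlap, as for 4 of the 8 phosphate members and 4 of the 6 sulfate members, close to the 53.4% over all tested genes.

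In the iron list, which covers iron uptake, 3 of 5 tested members fell and none rose, where 11% of all tested genes fell. Another 2 IDs were too low to be tested. Cre12.g546550 was at 0 counts in the stress libraries and 7.71, 7.84 and 14.3 CPM in the controls, at least 63.0-fold lower. Cre12.g546600 had 2.51, 9.12 and 3.53 CPM under stress and 94.5, 107 and 216 CPM in the controls (log2 fold change -4.77, SE 0.78, adjusted p 0.0013, edgeR), or -5.52 without stress replicate 2. These 2 IDs next to each other in number were low in every stress library. Cre09.g393150 fell by 1.51 on the log2 scale, a call lost without stress replicate 1 or 3 or without control replicate 3, with adjusted p 0.078, 0.066 and 0.06 in edgeR.

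Genes of cell division and DNA replication fell. Of 8 tested members 6 were lower and none higher, where 11% of all tested genes were lower. The median log2 fold change was -2.66, and the list summed to 98.3, 118 and 102 CPM under stress and 464, 479 and 302 CPM in the controls. Cre12.g492950 had 8.18, 9.84 and 9.64 CPM under stress and 105, 108 and 49.4 CPM in the controls (log2 fold change -3.25, SE 0.38). Cre08.g372550 had 7.95, 8.54 and 9.45 CPM under stress and 78.7, 83.5 and 59.1 CPM in the controls (log2 fold change -3.09, SE 0.27, adjusted p 3.3e-05, edgeR). Control replicate 3 was the lowest control for both, and still lay well above the stress libraries. Cre03.g207900 and Cre12.g515850 fell by 2.85 and 2.47 on the log2 scale. Cre08.g370401 had no count in any of the 6 libraries.

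Tubulin and intraflagellar transport genes, which build the cytoskeleton and the flagella, were lower too, and the number called varied between fits. Of 9 members 6 fell and none rose, where 11% of all tested genes fell. The median log2 fold change was -1.64, and the list summed to 911, 1670 and 1030 CPM in the stress libraries and 7270, 7650 and 7400 CPM in the control libraries. Cre12.g549550 had 55.1, 137 and 76.4 CPM under stress and 916, 1030 and 864 CPM in the controls (log2 fold change -3.39, SE 0.84). Cre04.g216850 had 142, 468 and 255 CPM under stress and 2380, 2450 and 2160 CPM in the controls (log2 fold change -3.02, SE 0.78). Cre03.g190950 had 333, 543 and 371 CPM under stress and 2610, 2810 and 3360 CPM in the controls (log2 fold change -2.82, SE 0.67). Every stress library lay far below every control library for these 3 genes, whose family includes near-identical copies. Cre12.g542250 fell by 1.62 on the log2 scale, a call lost in 5 of the 6 fits without 1 vip1-1 library (adjusted p between 0.061 and 0.11, edgeR). The number of members that fell was 1 without stress replicate 1 or stress replicate 3, 3 without stress replicate 2, and 4, 5 and 4 without control replicates 1, 2 and 3. With only the 6 vip1-1 libraries 7 members fell, where that fit called 2611 of 15146 genes lower. The full fit shares its spread over all 12 libraries. In wild-type under stress Cre12.g549550 averaged 714 ± 951 CPM and Cre04.g216850 768 ± 957 CPM (SD, n = 3 each). The part of this in the calls was not tested. In the fits without stress replicate 1 or 3, Cre12.g549550 and Cre04.g216850 were not called, with adjusted p between 0.056 and 0.066 in edgeR.

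In the cytosolic ribosomal protein list, 2 of 18 members were called higher and none lower, which is close to the 12.2% of all tested genes called higher. All 18 log2 fold changes were above 0, with a median of 0.48 against 0.09 for all tested genes. The list summed to 65700, 83200 and 65100 CPM under stress and 50100, 48400 and 50000 CPM in the controls, 1.44 times more under stress, with no overlap between the groups. Cre09.g388200 had 8890, 6250 and 5760 CPM under stress and 2550, 2360 and 1490 CPM in the controls (log2 fold change 1.71, SE 0.43, adjusted p 0.015, edgeR). Cre06.g278222 had 6190, 6410 and 5180 CPM under stress and 2840, 2760 and 2630 CPM in the controls (log2 fold change 1.11, SE 0.31). Neither call held without stress replicate 1 or without control replicate 3, with adjusted p between 0.055 and 0.068 in edgeR, and that of Cre06.g278222 was lost without any 1 of the 6 libraries. CPM values are shares of a library. The 1683 genes that fell held a large part of the control counts, and the part of that shift in the ribosomal sum was not tested.

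The TOR and autophagy list holds genes of the kinase pathway that senses nutrients and of the recycling it restrains. In it 2 of 6 members rose and none fell, where 12.2% of all tested genes rose. Cre03.g165215 had 37.1, 18.2 and 21.7 CPM under stress and 7.21, 6.30 and 9.17 CPM in the controls (log2 fold change 1.76, SE 0.37, adjusted p 0.0057, edgeR). Cre16.g689650 had 142, 170 and 149 CPM under stress and 71.3, 70.3 and 119 CPM in the controls (log2 fold change 0.83), and was called in the full fit and without control replicate 3 but in no other fit without 1 library. The list sum was 330, 282 and 277 CPM under stress and 190, 181 and 182 CPM in the controls. Chaperones and antioxidant enzymes guard proteins and remove reactive oxygen. Of 11 chaperone members 1 rose and 1 fell, close to the 12.2% and 11% of all tested genes. In the chaperone list, Cre12.g514850 rose, with 96.3, 98.0 and 103 CPM under stress and 58.4, 61.3 and 60.4 CPM in the controls, a call lost without stress replicate 3 or control replicate 1 or 2. Cre02.g080700 fell, with 98.0, 104 and 88.1 CPM under stress and 233, 241 and 237 CPM in the controls, and the other 9 chaperones did not pass. Control replicate 3 was far below its group at several of these, such as Cre09.g386750 with 270, 255 and 236 CPM under stress and 352, 353 and 84.4 CPM in the controls. In the antioxidant list, 2 of 6 members fell, Cre09.g417150 by 2.27 and Cre10.g436050 by 1.47 on the log2 scale. Over all tested genes 11% fell.

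In the lists of respiration, fermentation and light sensing, some members fell and none rose. Over all tested genes 11% were lower. In the mitochondrial list, 2 of 5 members fell, Cre09.g386650 by 1.62 and Cre02.g116750 by 1.27 on the log2 scale, while Cre09.g395950 had 80.5, 72.1 and 71.2 CPM under stress and 39.0, 38.7 and 42.6 CPM in the controls without passing the test (adjusted p 0.27, edgeR). Of 8 fermentation and hydrogen genes in the table, 1 fell: Cre03.g199800 had 26.7, 22.1 and 26.8 CPM under stress and 143, 139 and 119 CPM in the controls (log2 fold change -2.41, SE 0.76). The groups were far apart, but the call was lost without any 1 of the 6 libraries, with adjusted p between 0.064 and 0.12 in edgeR. It was kept in the fit of only the 6 vip1-1 libraries. In wild-type under stress the gene averaged 139 ± 180 CPM (SD, n = 3), a spread that enters the fit of all 12 libraries. The part of this in the call was not tested. Of 5 photoreceptor genes 3 fell, Cre03.g199000 by 1.24, Cre14.g611300 by 1.15 and Cre05.g230600 by 0.94 on the log2 scale. The call of Cre14.g611300 was lost without any 1 library, and its log2 fold change was -0.72 without control replicate 3.

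Set beside wild-type, the response in vip1-1 was called different for no list member in edgeR, while DESeq2 and voom with quality weights called some. The difference of the responses, vip1-1 minus wild-type, was called at 6 of 15286 genes (0.0393%) in edgeR, and 0 of the 246 list members were among them. Some members had 0 counts in the controls of both genotypes, such as Cre03.g159254 (SE of the difference 2019.06). For these the edgeR test of the difference could not decide. At an unadjusted p under 0.05 there were 48 list members (19.5%, against 8.0% of all tested genes). DESeq2 called 14 list members (6.11%, against 1.64% of all genes) and voom with quality weights 25 (10.2%, against 3.57%). The lists were chosen with results of these data known, so these shares describe the lists only. Wild-type stress against control called 26.0% of all tested genes. The 6 abundant features held 26.0%, 66.5% and 53.3% of the counts in the wild-type stress libraries and 71.0%, 14.6% and 9.32% in the wild-type control libraries, and wild-type control replicate 1 had counts at 11475 genes. The part of this in the wild-type values was not tested. The acetate list had 10 of 11 members lower in wild-type as well, with a median log2 fold change of -4.14 in vip1-1 and -2.26 in wild-type, and 7 of its members had an unadjusted p under 0.05 for the difference. Ribosomal protein genes had a median of 0.48 in vip1-1 and -0.38 in wild-type, with 6 such members, and tubulin and intraflagellar transport genes had 6 members lower in vip1-1 and 1 in wild-type, with 3 such members. Other lists held such members too, among them carbon concentration (6 of 21), chlorophyll synthesis (5 of 19) and the photoprotective antenna (3 of 4). The difference itself was called for none of these members in the full edgeR fit.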

How the data were processed

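Polyadenylated RNA of 12 cultures was sequenced from Illumina TruSeq Stranded mRNA libraries, per the labels' protocols. The authors deposited a count table with whole numbers and an FPKM table for the same 17741 IDs. HISAT2 and StringTie are named in the submitters' processing notes, without versions. The genome build and strand setting are not given in the sources used here, so no coordinates are given. The deposited FPKM follow the total count (0.394% variation over 536 genes) and carry no correction for composition.

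Libraries were grouped by title. The counts of all 12 were fitted with edgeR 4.0.16 in R 4.3.3: filterByExpr left 15286 genes, TMM scaled the libraries, and robust quasi-likelihood tests of vip1-1 stress against control were adjusted by Benjamini-Hochberg over all genes, with calls under 0.05. The test was also run on simulated counts, drawn without libraries that stand apart from their group. No result above rests on that run. SE was taken as log2 fold change over the root of the F statistic. Folds against a group at 0 counts use a floor of 3 counts per library. This floor covers counting error only.

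The members and lists were chosen with earlier results of these data known. Named were the 8 largest called changes in each direction (mean CPM at least 10, groups not overlapping) and up to 4 called members per list, by size (all of a list of 4 or fewer). Other members and single values, such as those decided by 1 library, were named after their values were seen. Protein family searches were not run, as no protein sequences were at hand, which also left unchecked the gene that is disrupted in the mutant. The reference table (Chlamydomonas_reinhardtii_v5.5) matched 17738 IDs and served only for gene order. Alternatives used DESeq2 1.42.0, limma 3.58.1 (voom with sample quality weights, and log2(FPKM + 1)), other scalings and filters, and fits without single libraries.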

Additional observations from a re-analysis of the deposited data

Results flagged for a closer look

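Genes on the lists with opposite, non-overlapping changes in the genotypes numbered 2. Cre09.g386912, on the storage and membrane lipid list, averaged 19.2 ± 0.705 CPM under stress and 26.8 ± 4.43 CPM in the controls of vip1-1, and 38.6 ± 1.89 CPM under stress and 29.7 ± 5.68 CPM in the controls of wild-type (SD, n = 3 each). Its log2 fold change was lower in vip1-1 by a difference of -0.85 (adjusted p 0.52, edgeR). Cre12.g535851, on the ribosomal list, averaged 1590 ± 506 CPM under stress and 992 ± 166 CPM in the controls of vip1-1, and 911 ± 417 CPM under stress and 1640 ± 260 CPM in the controls of wild-type (SD, n = 3 each). The difference was 1.53 (adjusted p 0.44, edgeR). Every stress library lay on one side of its controls in vip1-1 and on the other side in wild-type, which is why both are listed, but the test of the difference did not call either gene.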

How the results depend on the processing

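The number of genes called (3544, with 1861 higher and 1683 lower) was 904 with library totals as the only scaling (396 higher, 508 lower, 94 list members against 145), 5268 with only the 6 vip1-1 libraries (2657 higher, 2611 lower) and 10206 in voom with quality weights (5747 higher, 4459 lower). Without 1 vip1-1 library it ran from 2168 to 3141 (993 to 1618 higher, 1149 to 1523 lower, 122 to 140 list members), lowest without stress replicate 3. Without stress replicate 3 and control replicate 3 together, an alternative chosen after seeing the data, it was 1900 (1017 higher, 883 lower). DESeq2 called 4795 genes. Among list members the difference between genotypes was called at 1 without the 6 abundant features in the library sizes, at 14 in DESeq2, at 25 in voom, and at 0 to 1 without 1 vip1-1 library. The log2 fold changes of the genes named by rule kept their sign in each fit. Some medians near 0 did not: over the alternatives that of all genes (0.09) ran from -0.07 to 0.15, of the phosphate list (-0.10) from -0.33 to 1.04, of the fermentation list (0.08) from -0.35 to 0.32 and of the chaperone list (-0.05) from -0.49 to 0.03. With library totals alone, the members called were 7 lower for chlorophyll synthesis, 3 lower for tubulin, 1 lower each for starch and antioxidant, 3 higher and 5 lower for carbon concentration, 1 higher for glutamine, 2 higher and 0 lower for lipids, and 0 for the ribosomal, TOR, mitochondrial, photoreceptor and chaperone lists. The cause was not tested. Deviations of same-numbered stress and control libraries correlated at 0.24, -0.18 and 0.16, so the numbers were not taken as pairs. A replicate block over all 12 libraries called 3562 genes, and over the 6 vip1-1 libraries 4485. Genes under about 3 counts per library, 0.158 CPM (stress) and 0.092 CPM (control), are below what this depth measures.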

Other observations

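Called genes were set in the gene order of the reference table. Of 1860 placed genes that rose, 536 stood in runs of at least 2 adjacent tested genes that rose, and of 1682 placed genes that fell, 462 stood in such runs. Those shares, 28.8% and 27.5%, compare with 22.6% of all placed genes that had a neighbour that rose and 20.7% that had one that fell. The longest run that rose held 6 genes, Cre01.g008200 to Cre01.g008450, which had no list. Within it Cre01.g008300 averaged 59.6 ± 5.15 CPM under stress and 1.33 ± 0.695 CPM in the controls, and Cre01.g008350 40.3 ± 9.47 and 2.58 ± 0.973 CPM (SD, n = 3 each). The longest run that fell held 5 genes, Cre06.g278211 to Cre06.g278215, around the photosystem I antenna member Cre06.g278213. Cre09.g410850, Cre09.g410900 and Cre09.g410950 of the nitrate list formed a run of 4 with Cre09.g411050, which is on no list and averaged 68.2 ± 6.24 CPM under stress and 16.7 ± 2.04 CPM in the controls (SD, n = 3 each). Neighbouring gene models can share reads where transcripts overlap, and the part of this in the runs was not tested.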
